A study of Mus musculus with 8 samples.

Results

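The transcription factor genes of the naive pluripotency network, Nanog, Pou5f1, Sox2, Esrrb, Klf2, Klf4, Klf5, Tfcp2l1, Zfp42 and Tbx3, were examined in the total RNA of mouse embryonic stem cells (ESCs) after depletion of ZZZ3 or YEATS2. These 10 genes were chosen by name, for what they are known to do in ESCs, from the 55401 genes in the count tables. Earlier results of these data were known at that choice. All 10 passed the filter on low counts that left 17532 genes. ZZZ3 and YEATS2 belong to ATAC, a coactivator complex that acetylates histones. The study compared such RNA levels with nascent RNA, which was not analysed here, to ask how RNA amounts hold up when transcription is disturbed.

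The 8 libraries comprised 2 labelled Control, 3 labelled Zzz3_auxin and 3 labelled Yeats2_auxin. ZZZ3 or YEATS2 carried an auxin-inducible degron, a tag by which the plant F-box protein Tir1 drives degradation of the fused protein when auxin is present. Auxin was given at 500 µM for 24 h. All cultures grew in serum with leukaemia inhibitory factor (LIF) and both inhibitors of the 2i medium, CHIR99021 against GSK3 and PD0325901 against MEK, and in G418, which selects for Tir1. The labels state neither the line nor the treatment of the Control libraries. A supplement of the study names solvent (DMSO) as the reference in degron cells for its estimates of RNA metabolism, without linking these 2 libraries to either line, so depletion, auxin exposure and any difference of line cannot be told apart in a comparison with Control. They do not state whether replicates came from separate cultures or whether each degron line was 1 clone, so P values measure the spread between these libraries.

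Naive pluripotency is the state of the cells of the preimplantation epiblast, which can give rise to every tissue of the embryo. In culture it is held by a set of transcription factors that bind each other's regulatory regions, with LIF acting through STAT3 and the 2i inhibitors acting through TCF7L1 and ERK to keep the set on. When ESCs leave this state, Nanog, Esrrb, Klf2, Klf4, Tfcp2l1, Tbx3 and Zfp42 are switched off early, while Pou5f1 and Sox2 are still used in later states.

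The start-proximal DNA of Nanog, Pou5f1, Zfp42 and Tfcp2l1, the members highest in FPKM after either depletion, is shown first, since several members bind the regulatory DNA of the others. Each line is the 250 bases before the RefSeq start on GRCm38.p6, written 5′ to 3′ on the strand of the gene. Capitals mark letters that matched, on either strand, the octamer core ATGCAAA read by POU5F1, the SOX2 core ACAATG or the KLF box GGGNGTGG, and no capitals overlap. The windows are chr6:122707239-122707488 (plus strand) for Nanog, chr17:35505782-35506031 (plus strand) for Pou5f1, chr8:43307010-43307259 (minus strand) for Zfp42 and chr1:118627695-118627944 (plus strand) for Tfcp2l1.
Nanog: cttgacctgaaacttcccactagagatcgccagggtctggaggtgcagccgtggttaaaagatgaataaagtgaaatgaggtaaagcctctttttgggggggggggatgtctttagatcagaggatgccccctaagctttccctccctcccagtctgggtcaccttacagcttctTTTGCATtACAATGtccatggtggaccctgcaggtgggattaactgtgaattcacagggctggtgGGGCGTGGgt
Pou5f1: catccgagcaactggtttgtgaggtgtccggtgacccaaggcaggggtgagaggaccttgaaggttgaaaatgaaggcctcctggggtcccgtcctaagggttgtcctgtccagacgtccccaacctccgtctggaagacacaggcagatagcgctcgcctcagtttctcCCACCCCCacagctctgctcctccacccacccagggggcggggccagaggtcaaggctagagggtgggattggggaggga
Zfp42: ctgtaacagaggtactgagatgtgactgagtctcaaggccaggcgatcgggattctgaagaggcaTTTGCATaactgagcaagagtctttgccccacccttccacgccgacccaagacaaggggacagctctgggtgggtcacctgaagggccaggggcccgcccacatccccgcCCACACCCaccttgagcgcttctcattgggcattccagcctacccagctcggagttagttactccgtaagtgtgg
Tfcp2l1: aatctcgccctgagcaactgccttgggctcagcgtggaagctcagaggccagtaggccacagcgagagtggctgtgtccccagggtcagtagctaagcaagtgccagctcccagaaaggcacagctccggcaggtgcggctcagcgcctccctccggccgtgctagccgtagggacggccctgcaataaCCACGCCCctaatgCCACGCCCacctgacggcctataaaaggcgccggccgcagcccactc
The Nanog window held an octamer core 75 to 69 bases before the start beside a SOX2 core 67 to 62 bases before it, and a KLF box 10 to 3 bases before it. The Zfp42 window held an octamer core 185 to 179 bases before the start and a KLF box 75 to 68 bases before it. Pou5f1 held 1 KLF box, and Tfcp2l1 held 2, at 61 to 54 and 47 to 40 bases before the start. Of the other windows with an entry, that of Sox2 held 1 octamer core, 99 to 93 bases before the start, and those of Esrrb, Klf2 and Klf4 held none of these motifs. The Klf5 and Tbx3 windows are not shown.

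The same search over 32851 start-proximal windows of the same length gave an octamer core in 4.12%, a SOX2 core in 10.7% and a KLF box in 15.9% of them. The ESRRB core AAGGTCA occurred in 4.08% and the T-box core AGGTGTGA in 1.12% of the windows, and in none of the 8 member windows. These matches describe letters and were not tested for binding.

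Total reads assigned to genes ranged from 14315120 to 27884704 per library, and each member was counted at least 954 times in every library. Zzz3 RNA averaged 184 ± 3.23 CPM (reads relative to library size, TMM-scaled) in Control (SD, n = 2), 95.5 ± 17.3 in Zzz3_auxin and 188 ± 3.89 in Yeats2_auxin (n = 3 each). Yeats2 RNA averaged 93.4 ± 3.51, 125 ± 7.16 and 74.8 ± 29.9 CPM in the same groups, which checks RNA and not the protein that auxin removes. A chi-square test of the counts of Yeats2_auxin replicates 1 and 3 gave 3.71 per gene, the lowest of any pair of replicates (21.1 to 50.3 for the others). These 2 libraries were thus much more alike than other replicates. Both were kept as separate replicates, and whether they are independent was not tested. Control replicate 1 and Zzz3_auxin replicate 3 stood apart by base composition: the difference in log2 level between genes of high and low GC content was -0.58 and 0.43 in these libraries, measured from the mean of all 8, and -0.09 to 0.16 in the other 6.

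All 10 members, which serve as markers of ESCs, were expressed in every library, at very different levels. Tfcp2l1, a grainyhead-family factor downstream of LIF and STAT3, held rank 11 of the 17532 genes by mean level, at 2109 CPM. Nanog, a homeodomain factor, held rank 158 at 665 CPM, and Klf2, a Krüppel-like zinc finger factor, was lowest at rank 4009 and 59.7 CPM. The remaining 7 lay between ranks 293 and 2319.

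Levels of different genes were compared per kilobase of exon (FPKM, from the TMM-scaled library sizes and the merged exon length of each gene). In Control, Nanog had the highest FPKM, 336 ± 11.5 (SD, n = 2), followed by Tfcp2l1 at 249 ± 29.9 and Zfp42 (also called Rex1, a zinc finger factor used as a marker of the naive state) at 215 ± 31.1. Sox2, the HMG-box partner of POU5F1, followed at 165 ± 9.41 and Pou5f1, which encodes OCT4, at 155 ± 45.6. Esrrb, an orphan nuclear receptor, lay at 80.4 ± 4.58, less than the highest 5 and more than the 3 Krüppel-like factor genes and Tbx3, a T-box factor. These last 4 ranged from 26.1 ± 2.31 for Tbx3 to 34.5 ± 0.711 for Klf4, with Klf2 at 33.2 ± 0.886 and Klf5 at 26.3 ± 6.93. In Control the library ranges of neighbours in this order overlapped for Tfcp2l1 and Zfp42, for Sox2 and Pou5f1 and for Klf5 and Tbx3, and were separate for the other neighbours.

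The order by FPKM was the same in both depletions and differed from that in Control. After Nanog, at 289 ± 25.8 in Zzz3_auxin and 278 ± 24.1 in Yeats2_auxin, came Zfp42 (265 ± 22.1 and 250 ± 20.3), Pou5f1 (238 ± 28.4 and 227 ± 32.3) and Tfcp2l1 (205 ± 25.2 and 225 ± 38.0). Neighbours among these 4 overlapped in their library ranges in both depletions. Sox2 stood separately below them, at 149 ± 12.5 and 150 ± 5.08, and Esrrb separately below Sox2. Klf5 and Tbx3 again overlapped at the bottom, in the reverse order.

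**Figure D1:**
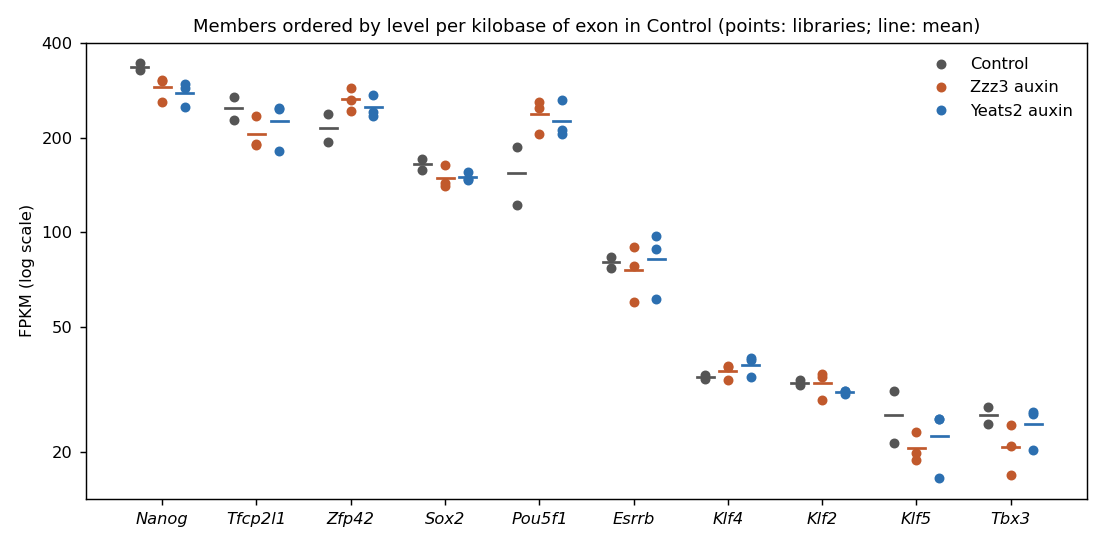
FPKM of each member (log axis) in each library, with members ordered by their Control mean, points for libraries and short lines for group means (Control n = 2, Zzz3 auxin and Yeats2 auxin n = 3 each). Nanog is highest in all 3 groups, Klf4, Klf2, Klf5 and Tbx3 form the lower tier at 26.1 to 34.5 FPKM in Control, and the Pou5f1 points of Zzz3 auxin and Yeats2 auxin lie above those of Control.

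No member was called at an adjusted P under 0.05 in any comparison (edgeR's quasi-likelihood test, Benjamini-Hochberg adjusted over all 17532 genes). Over all genes, 0.753% were called in Zzz3_auxin against Control and 0.445% in Yeats2_auxin against Control, so 0 of 10 members is near the background. At an unadjusted P under 0.05, 2 of 10 members were counted in each of these comparisons, beside 21.7% and 14.6% of all genes. Of the members, 3 had a positive log2 fold change (FC) and 7 a negative one in Zzz3_auxin, and 4 and 6 in Yeats2_auxin. The median log2 FC of the members was -0.11 and -0.10, beside 0.01 and -0.01 over all genes, and their median size without sign was 0.25 and 0.14, beside 0.27 and 0.23 over all genes. Single libraries moved these medians: in Zzz3_auxin the median was -0.06 without Zzz3_auxin replicate 1 and -0.07 without Control replicate 1, and in Yeats2_auxin it was 0.0080 without Yeats2_auxin replicate 2, and -0.0081 or -0.15 with Control replicate 1 or 2 left out. Both comparisons share the same 2 Control libraries.

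Pou5f1 had the largest difference among the members. Its level was 275 and 420 CPM in Control, 558, 463 and 584 CPM in Zzz3_auxin replicates 1 to 3, and 474, 592 and 460 CPM in Yeats2_auxin replicates 1 to 3. Every auxin library lay above both Control libraries, and the Controls themselves differed 1.53-fold. The log2 FC was 0.62 (SE 0.19, 95% interval 0.21 to 1.03) in Zzz3_auxin, with an unadjusted P of 0.00638 and an adjusted P of 0.106 by edgeR. In Yeats2_auxin it was 0.55 (SE 0.19, 0.14 to 0.96), with 0.0125 and 0.213. Without Control replicate 1, the library lowest for Pou5f1, the log2 FC was 0.34 and 0.28, and without Control replicate 2 it was 0.96 and 0.89. With the dependence on GC content and transcript length removed library by library, it was 0.33 and 0.36. DESeq2, in which 7.47% of the 14447 genes with an adjusted P were called, called Pou5f1 in Zzz3_auxin (log2 FC 0.62, adjusted P = 0.0344). In Yeats2_auxin DESeq2 called 0 members and 3.15% of 13168 genes. Without the filter on low counts, edgeR called it in both depletions (adjusted P = 8.59e-04 and 0.00714), and 4.67% and 1.68% of 33007 genes. In that fit the SE of Pou5f1 was 0.14 in each depletion, beside 0.19 with the filter, although its Controls differed as before.

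The ratio of Pou5f1 reads to those of another member within a library needs no scaling between libraries. Pou5f1 had 0.356 and 0.571 reads per Nanog read in the Controls, 0.823, 0.676 and 1.00 in Zzz3_auxin and 0.717, 1.06 and 0.713 in Yeats2_auxin. Per Sox2 read, the factor with which POU5F1 binds DNA as a pair, it had 0.780 and 1.29 reads in the Controls, 1.93, 1.38 and 1.98 in Zzz3_auxin and 1.58, 1.85 and 1.52 in Yeats2_auxin. For both ratios, each auxin library exceeded both Controls. For Nanog this follows from the CPM, since every auxin library was higher for Pou5f1 and lower for Nanog than both Controls. Ratios to Klf4, Esrrb and Klf5 overlapped Control in Yeats2_auxin, while in Zzz3_auxin they lay above both Controls. Pou5f1 and Klf4 had 9264 and 2353 reads in Control replicate 2, and 11632 and 3012 in Yeats2_auxin replicate 3. The ratio to Tfcp2l1 was 0.108 and 0.196 in the Controls and 0.197 to 0.346 in the auxin libraries, so that the lowest auxin library, Yeats2_auxin replicate 3, nearly met Control replicate 2. Base composition differs between these genes (57.6% GC in the exons of Pou5f1, 45.8% in Nanog, 50.5% in Sox2), and its part in these ratios was not tested.

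Zfp42 followed Pou5f1. Its level was 363 and 446 CPM in Control, 497, 459 and 542 CPM in Zzz3_auxin and 442, 513 and 454 CPM in Yeats2_auxin. All Zzz3_auxin libraries lay above both Controls, while Yeats2_auxin replicate 1 fell just under Control replicate 2. The log2 FC was 0.30 (SE 0.13, 95% interval 0.01 to 0.59) in Zzz3_auxin, with an adjusted P of 0.211 by edgeR, and 0.22 (SE 0.13, -0.07 to 0.50) in Yeats2_auxin, with 0.469. Without Control replicate 1 it was 0.16 and 0.07, and without Control replicate 2 it was 0.46 and 0.37. After the correction for GC content and length, which lowered the log2 FC of Pou5f1, that of Zfp42 was 0.43 and 0.29. Pou5f1 and Zfp42 were the members above both Controls throughout Zzz3_auxin, and Pou5f1 was the 1 such member in Yeats2_auxin, where 16.8% and 19.3% of all genes had such separated libraries.

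Zfp42 has a processed copy. Of the 50-base stretches of the Zfp42 transcripts, 8.52% also occurred in Zfp42-ps1, a pseudogene counted as a gene of its own, at 27.0 to 41.5 CPM in Control, 41.2 to 50.1 in Zzz3_auxin and 41.6 to 49.7 in Yeats2_auxin. Its log2 FC was 0.37 (SE 0.18) and 0.40 (SE 0.18). Reads that align to both were left out by the unique alignment, and how far this lowers either level was not tested. For Pou5f1, 10.1% of such stretches also occurred in Gm19553, which overlaps it on the other strand, or in Gm5712. Gm19553 was at 0.197 to 0.635 CPM in all libraries. Sox2 lies inside Sox2ot, a long noncoding RNA gene on the same strand, which was at 4.56 to 7.35 CPM against 289 to 353 CPM for Sox2 and shares no exon with it.

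Nanog was lower in every auxin library than in either Control. It measured 772 and 736 CPM in Control, 677, 684 and 581 CPM in Zzz3_auxin and 662, 561 and 646 CPM in Yeats2_auxin, so the groups did not overlap. The log2 FC was -0.22 (SE 0.12, 95% interval -0.49 to 0.05) in Zzz3_auxin and -0.28 (SE 0.12, -0.54 to -0.01) in Yeats2_auxin, with adjusted P of 0.319 and 0.325 by edgeR. After the correction for GC content and length it was -0.08 and -0.18, and without Zzz3_auxin replicate 3 it was -0.13 in Zzz3_auxin. A repeat in the Nanog transcript is shared with other genes, at 4.61% of its 50-base stretches, and its pseudogenes Nanog-ps1 and Nanog-ps2 had next to no reads.

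Sox2 had the narrowest range over the 8 libraries of the 3 core factors Pou5f1, Sox2 and Nanog. It measured 353 and 325 CPM in Control, 289, 336 and 295 CPM in Zzz3_auxin and 301, 320 and 303 CPM in Yeats2_auxin. Zzz3_auxin overlapped Control through its replicate 2, and Yeats2_auxin lay just under the lower Control. The log2 FC was -0.14 in both (SE 0.11), with intervals of -0.39 to 0.10 and -0.38 to 0.11 and adjusted P of 0.489 and 0.597 by edgeR. With each library left out in turn it stayed below 0, from -0.21 to -0.09 in Zzz3_auxin (lowest without replicate 2, highest without replicate 1) and from -0.19 to -0.08 in Yeats2_auxin (without Control replicate 2 and Control replicate 1).

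**Figure D2:**
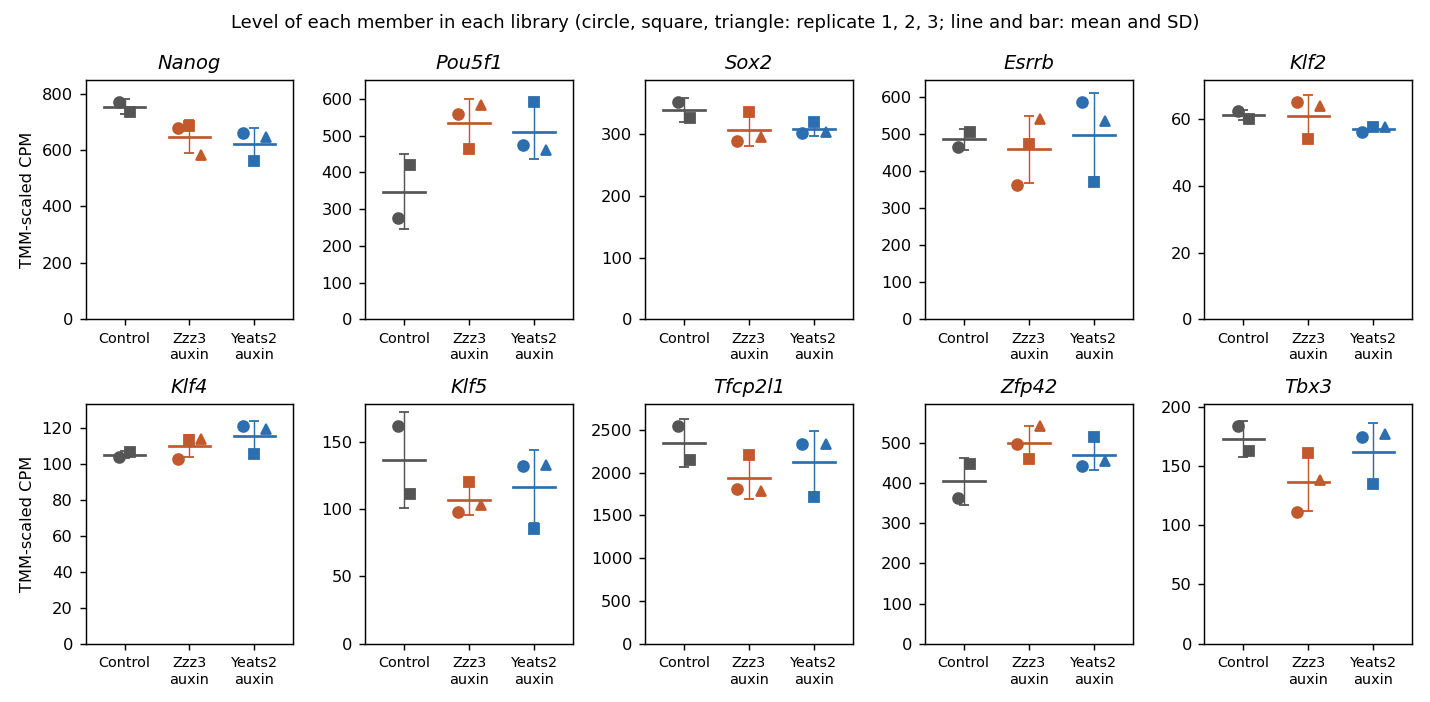
TMM-scaled CPM of each member in each library (panels, linear axes from 0), grouped as Control (n = 2), Zzz3 auxin and Yeats2 auxin (n = 3 each), with lines and bars for mean and SD. Pou5f1 lies at 275 and 420 CPM in Control and at 460 to 592 in the auxin libraries, Nanog lies at 561 to 684 CPM under both Controls, and the other panels overlap in at least 1 comparison.

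Among the 3 Krüppel-like factor genes, which can stand in for each other in ESC self-renewal, Klf2 and Klf4 varied little, with coefficients of variation of 1.45% to 10.0% within groups. Klf2 measured 62.4 and 60.1 CPM in Control, 65.3, 54.1 and 63.8 CPM in Zzz3_auxin and 56.2, 57.6 and 57.7 CPM in Yeats2_auxin. The Zzz3_auxin libraries enclosed the Controls, and the Yeats2_auxin libraries lay just under them, with log2 FC of -0.0050 (SE 0.12, 95% interval -0.27 to 0.26) and -0.10 (SE 0.12, -0.36 to 0.17). Klf2 has the most GC-rich exons of the members, 61.6%, and after the correction for GC content and length its log2 FC was -0.48 and -0.39, with adjusted P of 0.198 and 0.373 by edgeR.

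Klf4 measured 104 and 107 CPM in Control, 103, 113 and 114 CPM in Zzz3_auxin and 121, 106 and 119 CPM in Yeats2_auxin. The groups overlapped, with log2 FC of 0.06 (SE 0.11, 95% interval -0.18 to 0.31) and 0.13 (SE 0.11, -0.12 to 0.38). After the correction these turned to -0.11 and -0.01, with no call in either setting.

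Klf5 was far more variable. It measured 162 and 111 CPM in Control, 97.8, 121 and 103 CPM in Zzz3_auxin and 132, 85.6 and 133 CPM in Yeats2_auxin, whose replicate 2 was the lowest of all 8 libraries and Control replicate 1 the highest. Its groups overlapped, with log2 FC of -0.35 (SE 0.20, 95% interval -0.80 to 0.10) and -0.23 (SE 0.20, -0.67 to 0.22). Without Control replicate 1 the log2 FC of Klf5 was -0.05 and 0.07, and without Control replicate 2 it was -0.59 and -0.47.

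The factors with the longest transcripts, Tfcp2l1, Tbx3 and Esrrb, also varied widely between replicates. Tfcp2l1 measured 2545 and 2146 CPM in Control, 1802, 2207 and 1788 CPM in Zzz3_auxin and 2332, 1713 and 2336 CPM in Yeats2_auxin. It overlapped Control in both depletions, with log2 FC of -0.28 (SE 0.16, 95% interval -0.63 to 0.07) and -0.14 (SE 0.16, -0.49 to 0.21) and adjusted P of 0.340 and 0.724 by edgeR. The log2 FC of Tfcp2l1 was -0.15 and -0.01 when Control replicate 1 was left out and -0.39 and -0.26 when Control replicate 2 was. In Yeats2_auxin it was -0.0064 when Yeats2_auxin replicate 2 was left out.

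Tbx3 measured 184 and 162 CPM in Control, 112, 161 and 139 CPM in Zzz3_auxin and 174, 135 and 177 CPM in Yeats2_auxin. All Zzz3_auxin libraries lay under both Controls, replicate 2 by a narrow margin, while Yeats2_auxin overlapped Control. Its log2 FC was -0.34 (SE 0.17, 95% interval -0.70 to 0.03) and -0.10 (SE 0.17, -0.46 to 0.27), with adjusted P of 0.266 and 0.823 by edgeR. After the correction for GC content and length it was -0.54 and -0.25. Leaving out Yeats2_auxin replicate 2 gave 0.02 in Yeats2_auxin, and leaving out Control replicate 1 or 2 gave -0.0032 or -0.18.

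Nanog and Tbx3 were thus the 2 members with all libraries under Control in Zzz3_auxin, and Nanog, Sox2 and Klf2 the 3 in Yeats2_auxin, where 18.9% and 21.0% of all genes had libraries so separated. Esrrb measured 466 and 506 CPM in Control, 362, 473 and 540 CPM in Zzz3_auxin and 588, 371 and 536 CPM in Yeats2_auxin. Its replicates spread 1.49-fold within Zzz3_auxin and 1.59-fold within Yeats2_auxin and enclosed the Controls. Its log2 FC was -0.08 (SE 0.20, 95% interval -0.52 to 0.35) and 0.04 (SE 0.20, -0.40 to 0.47). Changes of Esrrb within these intervals remain possible. A call at an adjusted P under 0.05 asks for more than an interval that excludes 0, so larger changes could also be missed. After the correction for GC content and length the log2 FC of Esrrb was -0.31 and -0.13.

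The depletions were also compared directly, where the log2 FC does not use the Controls, although they share in the estimate of the spread. All 10 members overlapped between Yeats2_auxin and Zzz3_auxin, and 0 were called, with adjusted P from 0.779 to 0.993 by edgeR. Over all genes 0.0% were called, 6.25% had an unadjusted P under 0.05 (0 members), and 5.25% and 5.82% had Yeats2_auxin libraries all above or all below those of Zzz3_auxin (0 members each). DESeq2 called 3 genes, 0.00909% of 33005, and 0 members. The log2 FC of the members ran from -0.09 for Klf2 to 0.24 for Tbx3 (SE 0.15, 95% interval -0.09 to 0.57), with 6 above 0. For Pou5f1 it was -0.07 (-0.43 to 0.29), for Nanog -0.06 (-0.30 to 0.18) and for Sox2 0.00 (-0.22 to 0.23). These intervals bound the difference between both depletions and do not show that it is absent.

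**Figure D3:**
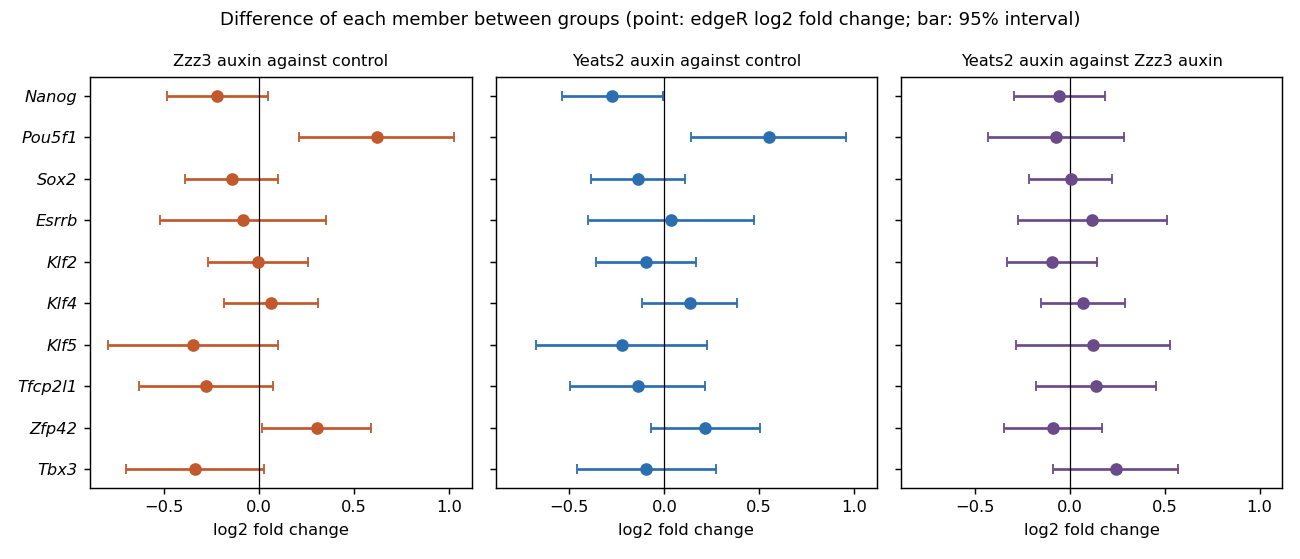
Log2 fold change of each member (points, edgeR) with its 95% interval (bars) in the 3 comparisons, of which the first 2 share their 2 Control libraries. Pou5f1 lies furthest from 0 against Control, at 0.62 and 0.55, and all intervals of Yeats2 auxin against Zzz3 auxin include 0.

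Replicates of 1 group differed in a patterned way. Over the 8 libraries, Pearson's r of log2 CPM was 0.97 between Pou5f1 and Zfp42 (Spearman's rho 0.83), and 0.84 to 0.96 among Tfcp2l1, Klf5 and Tbx3 (rho 0.90 to 0.98). Between these sets all 6 r were negative, -0.89 to -0.72. Taken as deviations from the group means, which leave out any difference between groups, r was 0.97 within the first set, 0.84 to 0.95 within the second and -0.93 to -0.63 between them. For log2 CPM itself, without the 2 libraries farthest from the median of 1 gene of each pair, r was 0.91, 0.91 to 0.96 and -0.84 to -0.63. Of all 45 pairs of members, 23 had r above 0 and 22 below. The values of 1 library share its RNA, depth, scaling and composition, and these pairs were picked out after their values were seen, so r is given as a description.

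In single libraries the pattern read as follows. Zzz3_auxin replicate 1 was 0.46 below the 8-library mean for Tbx3, 0.25 for Klf5 and 0.21 for Tfcp2l1 on the log2 scale, and 0.26 above it for Pou5f1. Yeats2_auxin replicate 2 was 0.44 below for Klf5, 0.29 for Tfcp2l1 and 0.19 for Tbx3, and 0.34 above for Pou5f1. Control replicate 1 was the mirror image, 0.48 above for Klf5 and 0.28 for Tfcp2l1, and 0.76 below for Pou5f1. Zzz3_auxin replicate 2 stayed within 0.14 of the mean for all members.

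Length and base composition were set beside this pattern. Klf5, Tfcp2l1, Tbx3 and Esrrb have over 5000 bases of exon, and Nanog, Pou5f1, Sox2, Klf2 and Zfp42 under 2500. The median deviation of the long members minus that of the short ones ranged from -0.42 in Zzz3_auxin replicate 1 to 0.25 in Yeats2_auxin replicate 1. The same difference over 4147 long and 1359 short genes ranged from -0.15 in Yeats2_auxin replicate 2 to 0.16 in Control replicate 1, and in Zzz3_auxin replicate 1 it was 0.06, of the other sign. After each library's trends on GC content and length were removed, r was 0.79 for Pou5f1 and Zfp42, 0.85 to 0.96 among Tfcp2l1, Klf5 and Tbx3 and -0.89 to -0.75 between them. Other pairs depended on this step, as with Klf2 and Zfp42, at 0.12 before and -0.92 after it, and Klf2 and Sox2, at -0.31 and 0.78. In bulk RNA, fewer cells of a type and less RNA per cell cannot be told apart, and what sets this pattern was not tested.

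**Figure D4:**
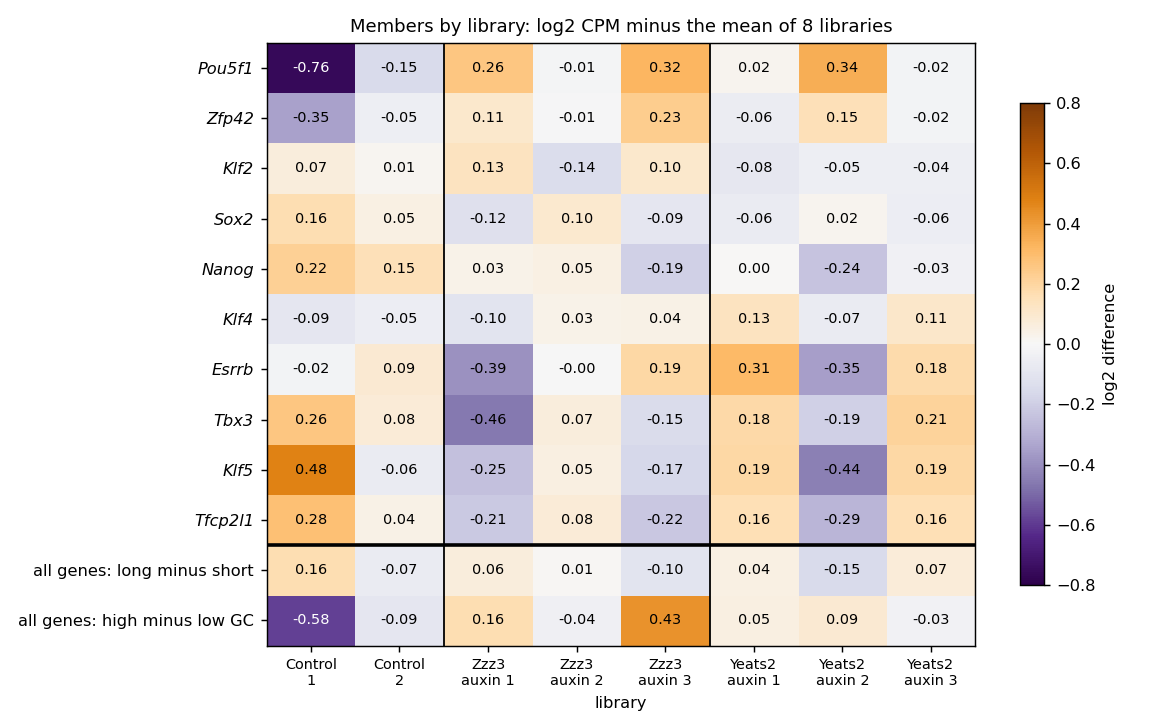
Log2 CPM of each member in each library minus its mean over the 8 libraries (colour and printed value, rows in order of the pattern described), with black lines between Control, Zzz3 auxin and Yeats2 auxin. The lowest 2 rows give, over all genes, the median of long minus short genes and of high minus low GC genes in each library, and Control 1 at -0.58 and Zzz3 auxin 3 at 0.43 stand apart in the last row.

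For each member, the gene with the most similar profile was looked up among 8882 genes averaging 10 CPM or more. Pou5f1 was most like Hagh (r = 0.997 over 8 libraries) and Zfp42 most like Cactin (0.988), and each had r over 0.9 with 462 genes, 5.20% of those compared. Tfcp2l1 was most like Mpzl2 (0.986), Klf5 like Srrm1 (0.97) and Tbx3 like Cmtm4 (0.987). Nanog was most like Rdx (0.98), Sox2 like D030056L22Rik (0.97), Esrrb like Racgap1 (0.96), Klf4 like Mtf1 (0.94) and Klf2 like Gpr89 (0.90). For the other members, 1 to 95 genes had r over 0.9. Each named gene was picked as the highest r among 8882 genes over only 8 libraries. How high the best r of unrelated genes would be was not tested, so these names are a description.

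The other genes of the network were read in the same way. Of 22 other pluripotency genes, all tested, 0 were called by edgeR or DESeq2. In each depletion 1 had an unadjusted P under 0.05 against Control by edgeR, beside 21.7% and 14.6% of all genes. Of these 22, 5 had a log2 FC above 0 in Zzz3_auxin and 6 in Yeats2_auxin, and the median was -0.12 and -0.09. Rif1, a telomere and replication-timing factor, measured 1953 ± 167 CPM in Control, 1749 ± 164 in Zzz3_auxin and 1763 ± 30.8 in Yeats2_auxin. Zfp281, a zinc finger factor that takes part in the exit from naive pluripotency, had log2 FC of -0.31 (SE 0.12) and -0.28 (SE 0.12), with adjusted P of 0.177 and 0.317 by edgeR. The DNA demethylases Tet1 (-0.14 and -0.26) and Tet2 (-0.22 and -0.23) had negative log2 FC as well. Dppa3, a germline and naive-state gene, measured 2.47 and 3.54 CPM in Control and 17.4, 4.43 and 2.81 CPM in Zzz3_auxin, so that its high mean there rested on replicate 1.

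Signals that maintain the network were read next. Of 10 genes of the LIF and STAT3 pathway, 0 were called by edgeR or DESeq2. By edgeR 2 and 1 had an unadjusted P under 0.05, beside 21.7% and 14.6% of all genes. Of the 10, 8 and 7 had a log2 FC above 0, with medians of 0.10 and 0.09. Stat3, which LIF activates and which acts on Klf4 and Tfcp2l1, measured 105 and 133 CPM in Control, 171, 141 and 160 CPM in Zzz3_auxin and 145, 139 and 148 CPM in Yeats2_auxin. It was above both Controls in every auxin library, with log2 FC of 0.40 (SE 0.13, adjusted P = 0.127 by edgeR) and 0.27 (SE 0.13, adjusted P = 0.364). The receptor genes Lifr (0.01 and -0.10) and Il6st (0.11 and -0.0012) had log2 FC near 0, and Socs3, a STAT3 target that damps the pathway, had 0.25 (SE 0.15) and 0.40 (SE 0.15). Jak2 went the other way, at -0.30 (SE 0.15) and -0.28 (SE 0.14).

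Of 13 genes of the WNT pathway and TCF7L1, the repressor of naive genes that CHIR99021 relieves, 0 were called by edgeR or DESeq2. By edgeR 3 and 0 had an unadjusted P under 0.05, beside 21.7% and 14.6% of all genes. The median log2 FC of the 13 was 0.11 and -0.01. Tcf7l1 measured 7.79 ± 1.40 CPM in Control, 13.9 ± 5.25 in Zzz3_auxin and 10.5 ± 2.05 in Yeats2_auxin, with log2 FC of 0.82 (SE 0.30, adjusted P = 0.155 by edgeR) and 0.43 (SE 0.30). Ctnnb1, which encodes β-catenin, had 0.11 and 0.19, and Gsk3b had -0.39 (SE 0.17) and -0.36 (SE 0.17). Of the β-catenin targets, Axin2 had 0.36 (SE 0.22) and -0.02 (SE 0.22), and Cdx1 had -0.52 (SE 0.18, unadjusted P = 0.0152 by edgeR) and -0.0063 (SE 0.18).

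Of 14 genes of the formative and primed states that follow the naive one, 12 were tested and 0 were called by edgeR. By edgeR 2 and 3 had an unadjusted P under 0.05, beside 21.7% and 14.6% of all genes. DESeq2 called Nodal in both depletions and Dnmt3b in Yeats2_auxin, beside 7.47% and 3.15% of the genes with an adjusted P. Of the 12 tested, 10 and 7 had a log2 FC above 0, and the median was 0.28 and 0.14. Without Zzz3_auxin replicate 1 the median for Zzz3_auxin was 0.15. Nodal, a TGFβ-family ligand, measured 87.8 ± 11.2 CPM in Control, 124 ± 7.36 in Zzz3_auxin and 126 ± 12.8 in Yeats2_auxin, with log2 FC of 0.49 (SE 0.13, adjusted P = 0.0831 by edgeR) and 0.52 (SE 0.13, adjusted P = 0.120). Dnmt3b, a de novo DNA methyltransferase, had 0.23 (SE 0.12) and 0.55 (SE 0.12, adjusted P = 0.0739). Otx2, a homeodomain factor of the formative state, had -0.10 (SE 0.23) and -0.64 (SE 0.23, adjusted P = 0.229).

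Paralogs of the members, from the KLF, SOX, POU, T-box, estrogen-related receptor and grainyhead families and Yy1, were read as relatives with similar DNA-binding domains. Of 34, 28 were tested and 0 were called by edgeR. By edgeR 8 and 4 had an unadjusted P under 0.05, beside 21.7% and 14.6% of all genes, so these counts are near the background. DESeq2 called Tbx4, Esrra and Klf12 in Zzz3_auxin and Tbx4 in Yeats2_auxin, beside 7.47% and 3.15% of the genes with an adjusted P. The median log2 FC by edgeR was -0.04 and -0.08. Klf9 measured 246 ± 8.47, 246 ± 16.5 and 231 ± 16.0 CPM in Control, Zzz3_auxin and Yeats2_auxin, and Pou2f1, which encodes OCT1, had log2 FC of -0.14 and -0.15 (SE 0.18 each). Klf12, a repressor of the KLF family, measured 9.18 and 8.44 CPM in Control and 3.68, 5.97 and 4.89 CPM in Zzz3_auxin, with log2 FC of -0.86 (SE 0.23, adjusted P = 0.0831 by edgeR) and -0.32 (SE 0.22). Esrra, which encodes the estrogen-related receptor α, measured 8.68 ± 1.32, 14.8 ± 2.90 and 12.4 ± 1.80 CPM in the 3 groups.

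**Figure D5:**
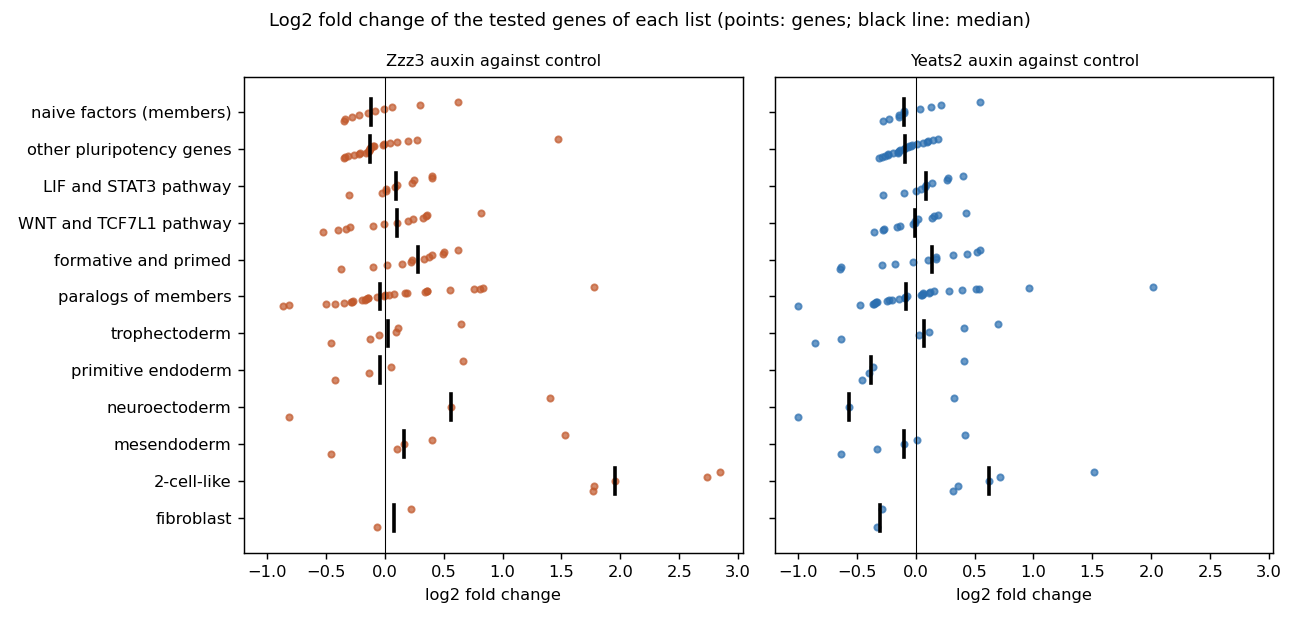
Log2 fold change of each tested gene (points) of the members and of the other gene lists, with the median of each list (black line), in Zzz3 auxin and Yeats2 auxin against the same Controls. Medians of the members lie at -0.11 and -0.10 and those of the 2-cell-like list at 1.95 and 0.62, and no gene shown was called by edgeR. Zscan4c, Zscan4f and Zfp352 of the 2-cell-like list passed the filter on low counts only through auxin libraries, so its medians partly follow from the filter.

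Markers of other cell types were low beside the members, whose summed level was 5018 to 5286 CPM in Control, 4563 to 5070 in Zzz3_auxin and 4453 to 5283 in Yeats2_auxin. Over all libraries the summed level was 49.6 to 53.6 CPM for 8 trophectoderm markers, 5.38 to 8.60 for 7 primitive endoderm markers, 41.0 to 71.9 for 7 neuroectoderm markers, 19.3 to 31.9 for 7 mesendoderm markers and 1.32 to 2.23 for 7 fibroblast markers. Most of the neuroectoderm sum was Nes, at 35.9 to 68.0 CPM, while Pax6 was under 1.01 CPM except for 2.80 in Zzz3_auxin replicate 1. Dcn, a fibroblast marker, had 0 reads. Many were too low to test: edgeR tested 6, 4, 3, 5 and 2 markers of these lists in turn, and DESeq2 gave an adjusted P against Control for no more than 5, 2, 2, 4 and 1. Of those tested, 0 were called by either tool. In Zzz3_auxin and Yeats2_auxin the log2 FC was -0.46 and -0.64 for Eomes and 0.64 and 0.70 for Krt8, with an unadjusted P under 0.05 in both. Nes (0.56 and 0.33) and Gsc (1.53 and 0.42) had such a P in Zzz3_auxin but not in Yeats2_auxin. Gsc was near the floor, at 0.0987 and 0.771 CPM in Control, and its SE in Zzz3_auxin was 0.62. Sox1, a neuroectoderm marker like Nes, had log2 FC of -0.81 (SE 0.51) and -0.999 (SE 0.51). The part of such cells in the members' values was not tested.

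The 2-cell-like list, genes of the totipotent-like state that appears in a small fraction of ESCs, was lowest in Control. Its 11 genes summed to 3.16 and 2.58 CPM in Control, 21.6, 6.63 and 6.02 CPM in Zzz3_auxin and 3.83, 5.68 and 3.40 CPM in Yeats2_auxin. Every auxin library lay above both Controls, with Zzz3_auxin replicate 1 far above the rest. The median log2 FC of its 5 tested genes was 1.95 in Zzz3_auxin and 0.62 in Yeats2_auxin. By edgeR 0 of them were called, and 5 and 1 had an unadjusted P under 0.05, beside 21.7% and 14.6% of all genes. Zscan4c, Zscan4f and Zfp352 lay at 0.148 to 0.272 CPM in Control and passed the filter on low counts only through auxin libraries. The filter thus favoured genes high after auxin, and the median and these counts partly follow from it. Without Zzz3_auxin replicate 1 the median for Zzz3_auxin was 1.45. Zscan4d measured 1.38 and 0.816 CPM in Control and 8.56, 2.13 and 1.81 CPM in Zzz3_auxin, and since the Zscan4 copies are nearly identical, its reads are uncertain. DESeq2 called Zscan4a and Zscan4d in Zzz3_auxin, beside 7.47% of the genes with an adjusted P. Zzz3_auxin replicate 1 was also the library lowest for Tbx3 and Esrrb, and without it the log2 FC in Zzz3_auxin was -0.19 for Tbx3 and 0.08 for Esrrb.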

How the data were processed

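Ribosomal RNA-depleted total RNA of 2 Control, 3 Zzz3_auxin and 3 Yeats2_auxin samples was read as grouped by the titles, although the labels name poly(A) RNA as the molecule. The deposited values are raw counts per gene, which the authors made by aligning reads to mm10 with STAR 2.5.3a and counting unique alignments with HTSeq 0.6.1p1 in union mode (submitters' processing notes and study methods). The strand option is not given in the sources used here. The 5 tallies of unassigned reads were dropped.

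Gene models from GENCODE on GRCm38 (mm10) covered 55141 of 55401 genes. Counts passed filterByExpr, were scaled by TMM (trimmed mean of M values) and fitted over all 8 libraries, with a mean per group, by the robust quasi-likelihood test of edgeR 4.0.16 in R 4.3.3. Scaled levels are relative, so a change shared by all RNAs would not show. P values were two-sided and adjusted over 17532 genes per comparison, with calls at an adjusted P under 0.05. The SE is the log2 FC over the root of F, and log2 CPM used a prior count of 2. Correlations are descriptions.

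Alternatives were DESeq2 1.42.0, size factors from the median of ratios, an unfiltered fit, a replicate block, a GC and length correction (lowess span 0.3) and each library left out. List medians without Zzz3_auxin replicate 1 were added after the data were seen. Plots were drawn with matplotlib 3.10.9.

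Members and lists were chosen with earlier results of these data known. The rule named all members and, per list, called genes, the 3 with the highest CPM and the 2 that differed most from Control in each depletion with 2 CPM or more on average, of which a selection is printed. Dcn was chosen after its values were seen.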

Additional observations from a re-analysis of the deposited data

How the results depend on the processing

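The number of members called was 0 in the 3 comparisons, and 1 (Pou5f1) in Zzz3_auxin without the filter on low counts and with DESeq2, and in Yeats2_auxin without the filter. Over all genes, calls in Zzz3_auxin and Yeats2_auxin were 132 and 78, against 1542 and 553 without the filter, 1079 and 415 with DESeq2, and 177 and 132 with the GC and length correction. With 1 library left out, calls in Zzz3_auxin ran from 0 (without either Control) to 841 (without Zzz3_auxin replicate 2), and were 14 without Zzz3_auxin replicate 1, 293 without replicate 3, and 3, 28 and 12 without Yeats2_auxin replicates 1, 2 and 3. In Yeats2_auxin they ran from 0 (without Control replicate 1 or Yeats2_auxin replicate 3) to 217 (without Zzz3_auxin replicate 3), and were 3 without Control replicate 2, 134 and 73 without Zzz3_auxin replicates 1 and 2, and 2 and 4 without Yeats2_auxin replicates 1 and 2. In the direct comparison there were 0 calls, 117 without the filter and 3 with DESeq2. The cause of these differences was not tested.

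Replicate numbers did not pair the samples: the correlation of same-numbered deviations from the group means ran from -0.333 to 0.304. With the replicate number as a block, 0 members and 42, 32 and 0 genes were called.

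Of 390 values of single members under alternatives, 24 changed sign, all of them uncalled. Outside the left-out libraries these were, with the GC and length correction, Klf4 against Control (-0.11 in Zzz3_auxin, -0.0052 in Yeats2_auxin), Esrrb in Yeats2_auxin (-0.13) and, between the depletions, Pou5f1 (0.030), Sox2 (-0.0092) and Klf2 (0.092). Klf2 in Zzz3_auxin was 0.0044 without the filter, and Esrrb in Yeats2_auxin -0.061 with the block. With each library left out in turn, the log2 FC in Zzz3_auxin ran from -0.20 to 0.076 for Esrrb and from -0.041 to 0.083 for Klf2. In Yeats2_auxin it ran from -0.097 to 0.21 for Esrrb, from -0.47 to 0.072 for Klf5 and from -0.18 to 0.022 for Tbx3. Between the depletions it ran from -0.13 to 0.014 for Nanog, from -0.19 to 0.00050 for Pou5f1, from -0.038 to 0.072 for Sox2 and from -0.028 to 0.29 for Esrrb.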

Other observations

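Tbx4, a T-box factor of limb and lung, had the largest log2 FC of the tested paralogs of the members. It measured 0.493 and 0.454 CPM in Control, 1.69, 2.09 and 1.00 CPM in Zzz3_auxin and 2.21, 2.10 and 1.46 CPM in Yeats2_auxin, so every auxin library lay above both Controls. The log2 FC was 1.78 (SE 0.40, adjusted P = 0.0655 by edgeR) and 2.01 (SE 0.40, adjusted P = 0.0612). DESeq2 called it in both depletions, beside 7.47% and 3.15% of the genes with an adjusted P. It was singled out after its values were seen, at a level far below that of Tbx3.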
